A study of Mus musculus with 36 samples.

Results

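The 10 genes described here make, break down, store or move heme and iron in the kidney: Hmox1, Hmox2, Blvra, Blvrb, Fth1, Ftl1, Slc40a1, Tfrc, Slc11a2 and Alas1. They were chosen by name from textbook roles in heme breakdown, ferritin storage, iron transport and the entry step of heme synthesis, not by a threshold on measured values. The choice was made with earlier results of these data known, so counts of members beside all tested genes are a description. All 10 of 10 were found by symbol among the 55536 annotated genes, and all 10 were among the 18180 genes that passed the filter on low counts. Kidney mRNA was sequenced from ob mice that received cadmium chloride (CdCl2) at 0.5 or 2 mg/kg, from untreated ob mice, from b6j mice at 0.5 or 2 mg/kg and from untreated b6j mice, with 6 libraries in each of the 6 groups and 36 in all. The ob mice are ob/ob animals, which lack functional leptin and become obese, and b6j denotes normal C57BL/6 mice. Both genotypes carry the C57BL/6 strain label, and the labels used here give neither route, duration, sex nor age. The series asks how kidneys of the 2 genotypes respond to cadmium.

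Heme oxygenase cuts heme into biliverdin, carbon monoxide and free iron, and biliverdin reductase turns the biliverdin into bilirubin. Free iron is locked into ferritin, a shell built of heavy (Fth1) and light (Ftl1) chains, or leaves the cell through ferroportin (Slc40a1), while transferrin receptor 1 (Tfrc) and the divalent metal transporter DMT1 (Slc11a2) bring iron in. In the kidney the proximal tubule takes up filtered metal, cadmium included, and heme oxygenase 1 is a classical stress-inducible enzyme there. The iron regulatory proteins bind a hairpin, the iron-responsive element, in the untranslated regions (UTRs) of several of these mRNAs. Bound at the 5′ end they hold back translation, and bound at the 3′ end of Tfrc mRNA they protect it from decay.

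The elements found in these mRNAs are shown because they tie ferritin and transferrin receptor to the same iron sensor at opposite ends of the message. The search asked for the loop CAGTGN with A, C or T in its last place, 5 paired bases on each side and an unpaired C 5′ of the stem. It covered the annotated transcripts of the 7 members held in the sequence table used here. Hmox1, Slc40a1 and Slc11a2 were not in that table, so no elements are listed for them. Their mRNAs entered only the count over all genes with a coding sequence. That count names no genes, so these 3 may carry the element too. Of the 7 members of that table, 3 carried the element in a UTR, against 133 of 22527 genes with a coding sequence (0.59%). The members were chosen by name for textbook roles in heme and iron, so these shares are a description and not a test. Each sequence is given 5′ to 3′ on the strand of its gene in genome build GRCm38, as DNA letters, with the loop in capitals.
Fth1, 5′ UTR, chr19:9982732-9982761, plus strand: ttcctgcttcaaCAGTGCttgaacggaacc
Ftl1, 5′ UTR, chr7:45459778-45459807, minus strand: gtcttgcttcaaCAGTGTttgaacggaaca
Tfrc, 3′ UTR, chr16:32631219-32631248, plus strand: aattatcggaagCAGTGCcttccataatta
Tfrc, 3′ UTR, chr16:32631598-32631627, plus strand: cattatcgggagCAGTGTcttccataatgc
Tfrc, 3′ UTR, chr16:32631663-32631692, plus strand: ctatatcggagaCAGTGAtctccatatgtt
Tfrc, 3′ UTR, chr16:32631710-32631739, plus strand: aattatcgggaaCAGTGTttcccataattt
Fth1 and Ftl1 have 1 element each and Tfrc has 4. A match is a stretch of letters and not a measurement of binding, and mRNA counts do not show how much ferritin protein was made.

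Each library held 26783936 to 37244058 counted reads, so 3 counts are worth 0.0805 to 0.112 CPM, the read count scaled to library size. Every member was counted in all 36 libraries. The kidney origin was visible in the summed level of 10 proximal tubule markers, which ran from 2584.1 to 49095 CPM over all libraries. The lowest of these sums belonged to ob replicate 5 at 2 mg/kg. That library stood apart on the second principal component, which held 12% of the variance, and it received a weight of 0.0332 when libraries were weighted by their spread. Many of the results that rest on it, though not all, are given with and without it. Cadmium reached the kidneys by the measure of metallothionein 1 (Mt1), a metal-binding protein, whose mean level followed the dose in both genotypes: 111 ± 21.2, 2823 ± 408 and 4424 ± 518 CPM in ob kidneys and 116 ± 17.3, 1369 ± 253 and 3073 ± 582 CPM in b6j kidneys at 0, 0.5 and 2 mg/kg (SD, n = 6 each). Its relative Mt2 rose with it, by log2 differences over controls of 5.81 in ob and 5.21 in b6j at the upper dose. The p-values below come from edgeR's quasi-likelihood test adjusted over all 18180 genes, and a gene is called at an adjusted p below 0.05. They weigh a difference between groups against the spread between libraries, estimated over all 36 libraries together.

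In ob kidneys at 0.5 mg/kg, 6 of the 10 genes were higher than in ob controls and 0 were lower, where 4.28% of all tested genes were called (3.55% higher, 0.737% lower). The higher dose gave 7 higher and 1 lower than ob controls, against 38.4% of all tested genes (20.4% higher, 18% lower). In b6j kidneys at 0.5 mg/kg, 1 gene, Hmox1, was higher than in b6j controls, against 0.325% of all tested genes (0.297% higher, 0.0275% lower). The b6j kidneys at 2 mg/kg had 7 higher and 1 lower than b6j controls, against 23.7% of all tested genes (12.3% higher, 11.4% lower). The 8 genes called at 2 mg/kg carried the same names and directions in ob and b6j: Hmox1, Blvrb, Fth1, Ftl1, Slc40a1, Tfrc and Alas1 were higher and Blvra was lower, while Hmox2 and Slc11a2 were not called. The median log2 difference from control over the 10 genes was 0.59 at 0.5 mg/kg and 1.03 at 2 mg/kg in ob, beside -0.01 and 0.01 over all tested genes. In b6j it was 0.18 and 0.67, beside 0.01 and 0.02. Every treated library lay above every control for 7 members in ob at 0.5 mg/kg, and for 4.3% of all tested genes. At 2 mg/kg this held for 6 members in ob (8.39% of all tested genes) and 6 in b6j (8.36%). Every treated library lay below every control for 1 member in each genotype at 2 mg/kg, beside 8.73% and 8.92% of all tested genes. In b6j at 0.5 mg/kg 1 member lay wholly above, beside 0.677%.

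**Figure D1:**
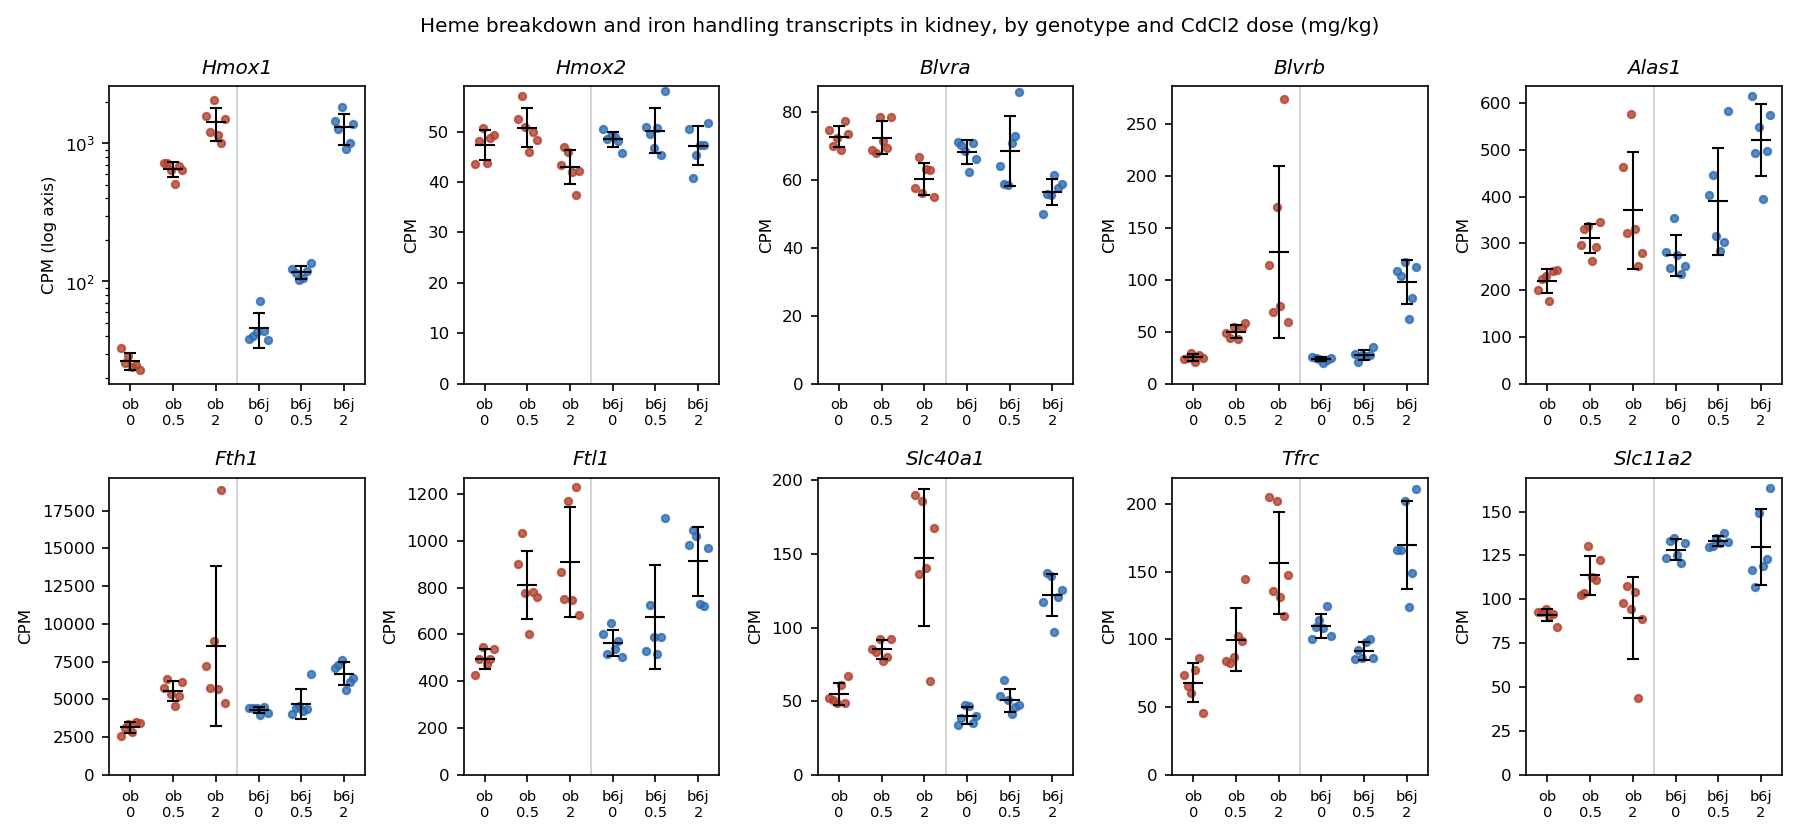
Level of each of the 10 genes in CPM by group, with 1 dot per library and bars for the mean ± SD of 6 libraries; the Hmox1 axis is logarithmic. Hmox1 separates all dose groups from their controls, and a single ob library at 2 mg/kg carries the highest Fth1 level, 18874 CPM.

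Hmox1 (ENSMUSG00000005413, chromosome 8, 75093621 to 75100589, plus strand) encodes the inducible heme oxygenase and showed the largest differences of the 10 genes. In ob kidneys its lowest, median and highest levels were 23.0, 25.3 and 33.0 CPM in controls, 507, 665 and 727 CPM at 0.5 mg/kg and 1007, 1361 and 2079 CPM at 2 mg/kg. In b6j kidneys they were 37.7, 41.6 and 71.6 CPM in controls, 102, 117 and 136 CPM at 0.5 mg/kg and 904, 1332 and 1829 CPM at 2 mg/kg. The 3 dose groups did not overlap within either genotype. At 2 mg/kg the ob and b6j libraries shared a range, whereas at 0.5 mg/kg every ob library was above every b6j library.

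Hmox1 rose 24.6-fold in ob kidneys at 0.5 mg/kg over ob controls (log2 difference 4.62 ± 0.19 SE, adjusted p = 1.06e-19). In b6j kidneys at the same dose it rose 2.55-fold over b6j controls (1.35 ± 0.16, adjusted p = 2.36e-06). At 2 mg/kg the rise over controls was 53.6-fold in ob (5.74 ± 0.20, adjusted p = 4.42e-22) and 28.7-fold in b6j (4.84 ± 0.19, adjusted p = 2.01e-20). Between the doses, Hmox1 at 2 mg/kg exceeded the level at 0.5 mg/kg by a log2 difference of 1.12 ± 0.16 in ob (adjusted p = 5.37e-06) and of 3.49 ± 0.18 in b6j (adjusted p = 1.15e-16). These are bulk kidney levels, in which fewer cells of a type and less RNA per cell cannot be told apart.

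Hmox2 (ENSMUSG00000004070, chromosome 16, 4726361 to 4766742, plus strand) encodes the constitutive heme oxygenase. Its group means lay between 43.0 and 50.8 CPM in all 6 groups, and it was called in none of the comparisons of a dose with its control. The widest of these differences was -0.14 ± 0.06 in ob at 2 mg/kg (adjusted p = 0.0802), which was called without ob replicate 2 at 2 mg/kg (adjusted p = 0.0433). Hmox2 was lower in ob at 2 mg/kg than in ob at 0.5 mg/kg (-0.24 ± 0.06, adjusted p = 0.00476), where 4 of 6 libraries fell below all of those at 0.5 mg/kg, and this call was lost with the compared groups only (-0.22, adjusted p = 0.0809). Its exons overlap those of Cdip1 on the other strand over 892 bases, and the counting did not use strand.

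Per kilobase of exon, Hmox1 mRNA was less abundant than Hmox2 mRNA in untreated ob kidneys, with a ratio of 0.714 ± 0.127 (SD, n = 6). The ratio was 16.3 ± 1.29 at 0.5 mg/kg and 41.7 ± 9.67 at 2 mg/kg in ob. In b6j it was 1.19 ± 0.331 in controls, 2.95 ± 0.241 at 0.5 mg/kg and 35.4 ± 9.58 at 2 mg/kg. The lowest ob ratio at 0.5 mg/kg was 14.0, and the highest b6j ratio was 3.35. Hmox1 mRNA exceeded Hmox2 mRNA per kilobase in every treated library of both genotypes.

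The biliverdin reductases moved in opposite directions. Blvrb (ENSMUSG00000040466, chromosome 7, 27447978 to 27466144, plus strand) encodes biliverdin reductase B, which also reduces flavins. Lowest, median and highest Blvrb levels in ob kidneys were 20.5, 24.9 and 29.1 CPM in controls, 43.2, 50.7 and 58.1 CPM at 0.5 mg/kg and 59.4, 94.8 and 274 CPM at 2 mg/kg. In b6j they were 19.8, 23.9 and 25.7 CPM in controls, 20.9, 27.6 and 35.3 CPM at 0.5 mg/kg and 62.0, 106 and 117 CPM at 2 mg/kg. Controls of the 2 genotypes shared a range, and the ob groups did not overlap from one dose to the next. Blvrb rose in ob at 0.5 mg/kg over ob controls by a log2 difference of 1.00 ± 0.23 (adjusted p = 0.00618), and its difference in b6j at that dose was 0.24 ± 0.23 (adjusted p = 1). The rise at 2 mg/kg was 5.06-fold in ob (2.34 ± 0.24, adjusted p = 1.33e-09) and 4.15-fold in b6j (2.05 ± 0.23, adjusted p = 3.62e-08). Without ob replicate 5 at 2 mg/kg the Blvrb difference in ob was 1.97.

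Blvra (ENSMUSG00000001999, chromosome 2, 127070665 to 127097084, plus strand) encodes biliverdin reductase A, the main reductase of adult tissue. In ob kidneys it had 54.8, 60.2 and 66.8 CPM as lowest, median and highest level at 2 mg/kg, against 68.8, 72.8 and 77.1 CPM in ob controls. In b6j kidneys the levels were 49.8, 56.7 and 61.2 CPM at 2 mg/kg, against 62.2, 69.4 and 71.2 CPM in b6j controls. In both genotypes every library at 2 mg/kg lay below every control. Blvra fell by 0.27 on the log2 scale in ob (SE 0.07, adjusted p = 0.00295) and by 0.27 in b6j (SE 0.07, adjusted p = 0.00477). Blvra differences at 0.5 mg/kg were -0.01 ± 0.07 in ob and 0.00 ± 0.07 in b6j, and it was not called. The Blvrb:Blvra ratio per kilobase was 0.304 ± 0.0325, 0.608 ± 0.0524 and 1.86 ± 1.18 in ob and 0.303 ± 0.0199, 0.357 ± 0.0376 and 1.54 ± 0.392 in b6j at 0, 0.5 and 2 mg/kg (SD, n = 6 each). In ob at 2 mg/kg the ratio spread from 0.906 to 3.83, the highest being replicate 5.

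Alas1 (ENSMUSG00000032786, chromosome 9, 106233455 to 106248654, minus strand) encodes the first and rate-limiting enzyme of heme synthesis outside red cells, and heme itself is known to repress it. The ob kidneys had lowest, median and highest Alas1 levels of 176, 228 and 242 CPM in controls, 263, 314 and 345 CPM at 0.5 mg/kg and 251, 327 and 578 CPM at 2 mg/kg. In b6j kidneys they were 235, 263 and 354 CPM in controls, 283, 360 and 584 CPM at 0.5 mg/kg and 396, 524 and 615 CPM at 2 mg/kg. Every library at 2 mg/kg lay above all controls of its genotype, in ob as in b6j. Alas1 rose at 2 mg/kg over controls by a log2 difference of 0.76 ± 0.16 in ob (adjusted p = 0.000391) and of 0.93 ± 0.17 in b6j (adjusted p = 5.9e-05). Differences at 0.5 mg/kg were of similar size, 0.50 ± 0.16 in ob (adjusted p = 0.077) and 0.51 ± 0.16 in b6j (adjusted p = 0.332), and neither was called. The ob difference for Alas1 was called without ob replicate 5 at 2 mg/kg (adjusted p = 0.0318), without ob replicate 3 at 2 mg/kg or without b6j replicate 6 at 0.5 mg/kg. With all libraries kept, it was called by DESeq2 (adjusted p = 0.0439) and limma-voom (adjusted p = 0.00764). The compared groups only (adjusted p = 0.000383) and the replicate block (adjusted p = 0.0464) gave that call too. The b6j difference was 0.35 without b6j replicate 6 at 0.5 mg/kg. Alas1 exons overlap an antisense transcript, 4930500F10Rik, over 465 bases.

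None of the other heme synthesis enzymes described here was called higher at 2 mg/kg. Of 8 enzymes, 1 was higher (Alas1) and 4 were lower in ob at that dose, and 1 was higher (Alas1) and 3 were lower in b6j. Of all tested genes, 38.4% were called in ob (20.4% higher, 18% lower) and 23.7% in b6j (12.3% higher, 11.4% lower). The median log2 difference over the 8 was -0.29 in ob and -0.26 in b6j. Alad, which joins the product of Alas1 into porphobilinogen, showed the largest fall, to 45.8 ± 6.07 CPM in ob at 2 mg/kg, against 79.0 ± 7.57 CPM in ob controls (SD, n = 6; log2 difference -0.79 ± 0.10, adjusted p = 1.46e-07). In b6j, Alad had 56.0 ± 5.59 CPM at 2 mg/kg, against 86.4 ± 10.6 CPM in b6j controls (-0.63 ± 0.10, adjusted p = 1.27e-05). Ppox, the next to last enzyme, also fell in both, by 0.34 in ob (adjusted p = 0.000449) and by 0.29 in b6j (adjusted p = 0.00312).

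Cpox, the enzyme before Ppox, had -0.24 ± 0.10 in ob (adjusted p = 0.0448) and -0.29 ± 0.10 in b6j (adjusted p = 0.0261). The ob call of Cpox was lost in 12 of the 36 fits that left out 1 library, and the b6j call without b6j control replicate 3, b6j replicate 1 or b6j replicate 2 at 2 mg/kg. Uros, called lower in ob (-0.37 ± 0.15, adjusted p = 0.047), lost that call in 29 of 36 such fits. Without ob replicate 5 at 2 mg/kg the list held 1 higher and 2 lower enzymes in ob and 1 higher and 5 lower in b6j. Fech, which inserts the iron, had -0.05 ± 0.07 in ob and 0.13 ± 0.08 in b6j, and neither Urod (-0.15 in ob, -0.19 in b6j) nor the red cell isoform Alas2 (-0.57 in ob, -0.24 in b6j) was called. Of the 8 enzymes at 0.5 mg/kg, 0 were called in either genotype by edgeR, with 1 in ob and 1 in b6j at an unadjusted p below 0.05. DESeq2 called 1 of them in ob and 0 in b6j at that dose, and limma-voom called 1 in ob and 0 in b6j. The Hmox1:Alas1 ratio per kilobase was 0.434 ± 0.0877, 7.46 ± 0.872 and 13.9 ± 2.64 in ob and 0.597 ± 0.176, 1.11 ± 0.225 and 8.82 ± 1.56 in b6j at 0, 0.5 and 2 mg/kg (SD, n = 6 each).

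**Figure D2:**
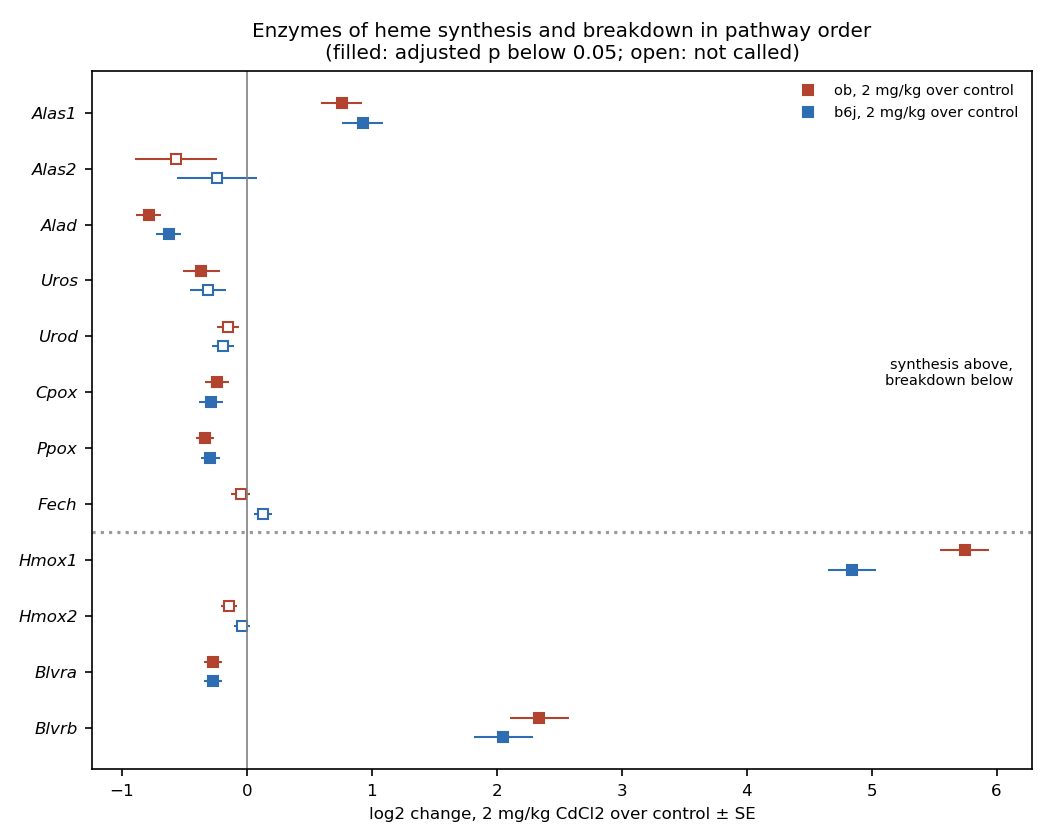
Log2 difference between 2 mg/kg and control (± SE) along the pathway, from the heme synthesis enzymes to heme oxygenase and biliverdin reductase, in ob and b6j kidneys. Alas1 lies above 0 and Alad at -0.79 in ob and -0.63 in b6j, and Hmox1 and Blvrb stand above the other genes at the breakdown end.

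Both ferritin chains rose at 2 mg/kg in both genotypes, and in ob they were raised already at 0.5 mg/kg. Fth1 (ENSMUSG00000024661, chromosome 19, 9980598 to 9985098, plus strand) encodes the heavy chain, which oxidises iron on entry. In ob kidneys its lowest, median and highest levels were 2611, 3240 and 3483 CPM in controls, 4590, 5552 and 6323 CPM at 0.5 mg/kg and 4790, 6489 and 18874 CPM at 2 mg/kg. In b6j they were 3989, 4409 and 4484 CPM in controls, 4012, 4408 and 6665 CPM at 0.5 mg/kg and 5633, 6744 and 7641 CPM at 2 mg/kg. In ob every treated library exceeded every ob control, while in b6j this held at 2 mg/kg only. Fth1 rose 1.77-fold in ob at 0.5 mg/kg over ob controls (log2 difference 0.82 ± 0.20, adjusted p = 0.00822), and its difference in b6j at that dose was 0.13 ± 0.19 (adjusted p = 1). With 2 mg/kg Fth1 rose 2.71-fold in ob (1.44 ± 0.20, adjusted p = 5.46e-07) and 1.55-fold in b6j (0.63 ± 0.20, adjusted p = 0.0155).

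Replicate 5 of ob at 2 mg/kg held the highest Fth1 level of the 36 libraries, 18874 CPM. Without it the Fth1 difference in ob at 2 mg/kg was 1.05 (adjusted p = 8.65e-09). The comparison of 2 with 0.5 mg/kg in ob, 0.62 ± 0.20 (adjusted p = 0.016), turned into 0.23 without this library and was no longer called (adjusted p = 0.153).

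Ftl1 (ENSMUSG00000050708, chromosome 7, 45457944 to 45459884, minus strand) encodes the light chain, which helps the iron core to form. For ob kidneys the lowest, median and highest Ftl1 levels were 426, 494 and 546 CPM in controls, 603, 780 and 1033 CPM at 0.5 mg/kg and 683, 808 and 1229 CPM at 2 mg/kg. In b6j they were 504, 553 and 647 CPM in controls, 517, 589 and 1098 CPM at 0.5 mg/kg and 722, 976 and 1044 CPM at 2 mg/kg. The ob libraries at either dose lay above all ob controls, and the 2 doses overlapped in both genotypes. In ob, Ftl1 rose 1.63-fold at 0.5 mg/kg (0.71 ± 0.16, adjusted p = 0.00388) and 1.83-fold at the upper dose (0.87 ± 0.16, adjusted p = 3.66e-05), and 1.62-fold in b6j at 2 mg/kg (0.70 ± 0.16, adjusted p = 0.00102). In b6j at 0.5 mg/kg the Ftl1 difference was 0.26 ± 0.16 (adjusted p = 0.986), and it was 0.07 without b6j replicate 6 at that dose, the library with 1098 CPM.

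The Fth1:Ftl1 ratio per kilobase, heavy over light chain mRNA, was 2.45 ± 0.14, 2.69 ± 0.288 and 3.45 ± 1.23 in ob and 2.98 ± 0.235, 2.77 ± 0.334 and 2.87 ± 0.252 in b6j at 0, 0.5 and 2 mg/kg (SD, n = 6 each). The lengths used were those of all annotated exons, 3469 bases for Fth1 and 1340 for Ftl1. The size of the ratio rests on these lengths, and a shorter main transcript would change it by the same factor in every library. In ob at 2 mg/kg replicate 5 had a ratio of 5.93 and the others lay between 2.71 and 3.23. Ferritin genes have processed copies elsewhere in the genome that can share reads. Of these, Ftl1-ps1 was counted at group means of 2.66 to 5.38 CPM, low beside Ftl1, and its counts could come from either gene. Ftl1 exons also overlap Gm10252 on the other strand over 355 bases and the miRNA gene Gm22133 on the same strand over 109.

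Slc40a1 (ENSMUSG00000025993, chromosome 1, 45908068 to 45926523, minus strand) encodes ferroportin, the known iron exporter of vertebrate cells. Its lowest, median and highest levels in ob kidneys were 48.9, 51.5 and 67.3 CPM in controls, 77.3, 84.7 and 92.6 CPM at 0.5 mg/kg and 64.1, 154 and 190 CPM at 2 mg/kg. In b6j they were 33.9, 39.02 and 47.3 CPM in controls, 41.1, 49.1 and 64.5 CPM at 0.5 mg/kg and 97.1, 123 and 137 CPM at 2 mg/kg. All ob libraries at 0.5 mg/kg and 5 of 6 at 2 mg/kg lay above every ob control, and all b6j libraries at 2 mg/kg lay above every b6j control. Slc40a1 rose 1.55-fold in ob at 0.5 mg/kg (log2 difference 0.64 ± 0.15, adjusted p = 0.00909), and in b6j at that dose it had 0.33 ± 0.15 (adjusted p = 0.803). With 2 mg/kg Slc40a1 rose 2.68-fold in ob (1.42 ± 0.15, adjusted p = 5.35e-09) and 3.04-fold in b6j (1.60 ± 0.15, adjusted p = 1e-09). Macrophages also express ferroportin. Of 11 macrophage markers, 8 were called higher and 1 lower in ob at 2 mg/kg, where 20.4% of all tested genes were higher and 18% lower. In b6j at 2 mg/kg 8 of them were higher and 0 lower, where 12.3% of all tested genes were higher and 11.4% lower. Without ob replicate 5 at 2 mg/kg, 9 were higher and 1 lower in ob, and 9 higher and 0 lower in b6j. The summed level of these markers had a lowest, median and highest value of 117, 276 and 469.9 CPM in ob at 2 mg/kg, against 153.3, 166.2 and 177.7 CPM in ob controls. In b6j the sums were 197.1, 251.7 and 286.4 CPM at 2 mg/kg, against 160.6, 174.2 and 192.6 CPM in b6j controls. None of the 11 was at 0 throughout a group, and their part in the Slc40a1, Hmox1 and ferritin values at 2 mg/kg was not tested. At 0.5 mg/kg, 0 of the 11 were called in either genotype by edgeR or DESeq2, limma-voom called 1 lower in ob, and 0 had an unadjusted p below 0.05 by edgeR. The sums at that dose were 125.8, 165 and 178.7 CPM in ob.

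Tfrc (ENSMUSG00000022797, chromosome 16, 32608920 to 32632794, plus strand) encodes the receptor that takes up transferrin-bound iron. In ob kidneys its lowest, median and highest levels were 45.5, 69.8 and 86.5 CPM in controls, 82.5, 92.8 and 144.5 CPM at 0.5 mg/kg and 117, 141 and 205 CPM at 2 mg/kg. In b6j they were 100, 109 and 125 CPM in controls, 85.8, 89.4 and 100 CPM at 0.5 mg/kg and 124, 166 and 211 CPM at 2 mg/kg. At 0.5 mg/kg the ob libraries were high in their genotype, with 4 of 6 above all ob controls, while 5 of 6 b6j libraries lay below all b6j controls. Tfrc rose at 2 mg/kg 2.29-fold in ob (log2 difference 1.20 ± 0.15, adjusted p = 7.19e-08) and 1.54-fold in b6j (0.63 ± 0.15, adjusted p = 0.0015). In ob at 0.5 mg/kg it had 0.55 ± 0.15 (adjusted p = 0.0212), a call lost without ob control replicate 3 (0.51, adjusted p = 0.062), ob control replicate 6 (0.45, adjusted p = 0.078) or ob replicate 6 at 0.5 mg/kg (0.42, adjusted p = 0.107). In b6j at 0.5 mg/kg the Tfrc difference was -0.26 ± 0.15 (adjusted p = 0.95). Tfrc and ferritin mRNA were therefore both higher at 2 mg/kg in either genotype.

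Slc11a2 (ENSMUSG00000023030, chromosome 15, 100387898 to 100425072, minus strand) encodes DMT1, which carries iron and, in cells that overproduce it, cadmium. Lowest, median and highest Slc11a2 levels in ob kidneys were 84.5, 92.1 and 94.7 CPM in controls, 102, 112 and 130.5 CPM at 0.5 mg/kg and 44.0, 96.4 and 108 CPM at 2 mg/kg. In b6j they were 121, 129 and 135 CPM in controls, 130, 132 and 138 CPM at 0.5 mg/kg and 107, 121 and 163 CPM at 2 mg/kg. The 0.5 mg/kg ob libraries all lay above the ob controls, but edgeR over all 36 libraries did not call the gene (0.32 ± 0.12, adjusted p = 0.148). Slc11a2 was called there by limma-voom (0.31, adjusted p = 0.00117) and with the compared groups only (0.31, adjusted p = 0.00183). It was also called without ob replicate 5 at 2 mg/kg (adjusted p = 0.00288). Differences of Slc11a2 at 2 mg/kg were -0.03 ± 0.12 in ob (adjusted p = 0.893) and 0.02 ± 0.12 in b6j (adjusted p = 0.944), with an ob value of 0.12 without replicate 5 (adjusted p = 0.207). In ob it was lower at 2 than at 0.5 mg/kg (-0.34 ± 0.12, adjusted p = 0.0288), and this call was lost without ob replicate 3 or 6 at 0.5 mg/kg, ob replicate 5 at 2 mg/kg (-0.19, adjusted p = 0.054) or ob replicate 6 at 2 mg/kg. Its exons overlap Gm5475 on the other strand over 402 bases.

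Between the doses, 5 members were higher and 3 lower at 2 than at 0.5 mg/kg in ob, against 29.7% of all tested genes (15.2% higher, 14.5% lower). The higher ones were Hmox1, Blvrb (1.34 ± 0.23, adjusted p = 4.84e-05), Slc40a1 (0.79 ± 0.15, adjusted p = 0.000209), Tfrc (0.65 ± 0.15, adjusted p = 0.00111) and Fth1, and the lower ones Hmox2, Blvra (-0.27 ± 0.07, adjusted p = 0.00547) and Slc11a2. In b6j 5 were higher and 1 was lower, against 17.3% of all tested genes (8.78% higher, 8.51% lower). Blvrb (1.81 ± 0.23, adjusted p = 6.25e-07), Slc40a1 (1.27 ± 0.15, adjusted p = 1.97e-07) and Tfrc (0.89 ± 0.15, adjusted p = 3.54e-05) joined Hmox1, and Blvra fell by 0.28 (adjusted p = 0.00608). The b6j call of Ftl1 (0.43 ± 0.16, adjusted p = 0.0494) was lost in most of the 36 fits without 1 library. Fth1 in b6j had 0.51 ± 0.20 (adjusted p = 0.0674) and Alas1 0.42 ± 0.16 (adjusted p = 0.0729). Both of these were called in b6j without ob replicate 5 at 2 mg/kg or without b6j replicate 6 at 0.5 mg/kg, Fth1 also without ob replicate 6 at 2 mg/kg, and Alas1 also without ob replicate 3 or b6j replicate 4 at 2 mg/kg.

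Without cadmium Hmox1, Tfrc and Slc11a2 were lower and Slc40a1 was higher in ob than in b6j kidneys. Of the 10 members, 1 was higher and 3 were lower in ob controls than in b6j controls, where 15.5% of all tested genes were called (6.6% higher, 8.93% lower). Hmox1 had 26.6 ± 3.73 CPM in ob controls, against 45.7 ± 12.9 CPM in b6j controls (SD, n = 6; log2 difference -0.78 ± 0.16, adjusted p = 0.00073). Tfrc had 68.2 ± 14.4 CPM in ob controls, against 110 ± 8.96 CPM in b6j controls (-0.69 ± 0.15, adjusted p = 0.000876). Slc11a2 had 91.1 ± 3.5 CPM in ob controls, against 128 ± 5.85 CPM in b6j controls (-0.49 ± 0.12, adjusted p = 0.00372). For all 3 every ob control lay below every b6j control. The same held for 7.93% of all tested genes, and 5.37% had every ob control above every b6j control. Slc40a1 had 54.9 ± 7.54 CPM in ob controls, against 40.2 ± 5.67 CPM in b6j controls (0.45 ± 0.15, adjusted p = 0.0402), with every ob control above every b6j control. Of the 13 other genes of iron uptake and reduction, 2 were higher and 2 lower in ob controls. Markers of cell types differed between the controls as well: 4 of 4 podocyte and 3 of 5 endothelial markers were called higher and 2 of 10 proximal tubule markers lower in ob, and the tubule sum had a median of 23109.9 CPM in ob controls, against 44547.2 CPM in b6j controls. Their part in the values of the members was not tested.

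The Slc40a1 call was lost in 9 of 36 fits without 1 library, those without ob control replicates 1, 2, 4 or 6, b6j control replicates 1, 2, 5 or 6, or b6j replicate 6 at 0.5 mg/kg, over which its difference ran from 0.38 to 0.47 and its adjusted p reached 0.116. Fth1 had 3145 ± 347 CPM in ob controls, against 4315 ± 203 CPM in b6j controls, without overlap. Its difference of -0.46 ± 0.20 was not called (adjusted p = 0.112), and it was called without ob replicate 5 at 2 mg/kg (adjusted p = 0.00255). Alas1 (-0.32 ± 0.16, adjusted p = 0.194), Ftl1 (-0.18 ± 0.16), Blvra (0.09 ± 0.07), Blvrb (0.09 ± 0.23) and Hmox2 (-0.03 ± 0.06) were not called between the controls.

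An interaction test, which asks whether a dose moved ob and b6j kidneys by different amounts, called Hmox1 alone among the 10 at either dose, where 0.385% of all tested genes were called at 0.5 mg/kg (0.369% higher, 0.0165% lower) and 2.07% at 2 mg/kg (1.06% higher, 1.01% lower). At 0.5 mg/kg the Hmox1 response was larger in ob than in b6j by a log2 difference of 3.27 ± 0.23 (adjusted p = 1.43e-11). The Hmox1 response at 2 mg/kg was larger in ob by 0.90 ± 0.23 (adjusted p = 0.0289). The ob controls lay below the b6j controls, while the levels at 2 mg/kg shared a range. That call was lost without ob replicate 3 at 2 mg/kg (0.76, adjusted p = 0.0636), b6j control replicate 4 (0.74, adjusted p = 0.0537), b6j replicate 4 at 2 mg/kg (0.83, adjusted p = 0.0545) or b6j replicate 5 at 2 mg/kg (0.86, adjusted p = 0.052), and when only the compared groups entered the fit (0.92, adjusted p = 0.0883). Tfrc came next at 0.5 mg/kg, with 0.81 ± 0.21 (adjusted p = 0.0753), called without ob control replicate 5 or without ob replicate 5 at 2 mg/kg (adjusted p = 0.0229). Fth1 at 0.5 mg/kg had 0.70 ± 0.28 (adjusted p = 0.44), called without ob replicate 5 at 2 mg/kg (adjusted p = 0.0185). For Fth1 at 2 mg/kg the value was 0.81 ± 0.28 (adjusted p = 0.117), and 0.42 without that library (adjusted p = 0.157). It was called by DESeq2 (0.84, adjusted p = 0.0492) and without ob replicate 6 at 2 mg/kg (0.94, adjusted p = 0.0341). Blvrb had 0.76 ± 0.32 at 0.5 mg/kg (adjusted p = 0.509), and Alas1 (0.00 ± 0.23) and Blvra (-0.01 ± 0.10) had values near 0 there. At 0.5 mg/kg limma-voom called Tfrc, Fth1, Blvrb (0.82, adjusted p = 0.0382) and Ftl1 (0.61, adjusted p = 0.0246). With the compared groups only, Tfrc, Fth1 and Blvrb (0.75, adjusted p = 0.00253) were called. At 2 mg/kg limma-voom called Tfrc (0.64, adjusted p = 0.0382). An uncalled difference does not show that the genotypes responded alike.

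**Figure D3:**
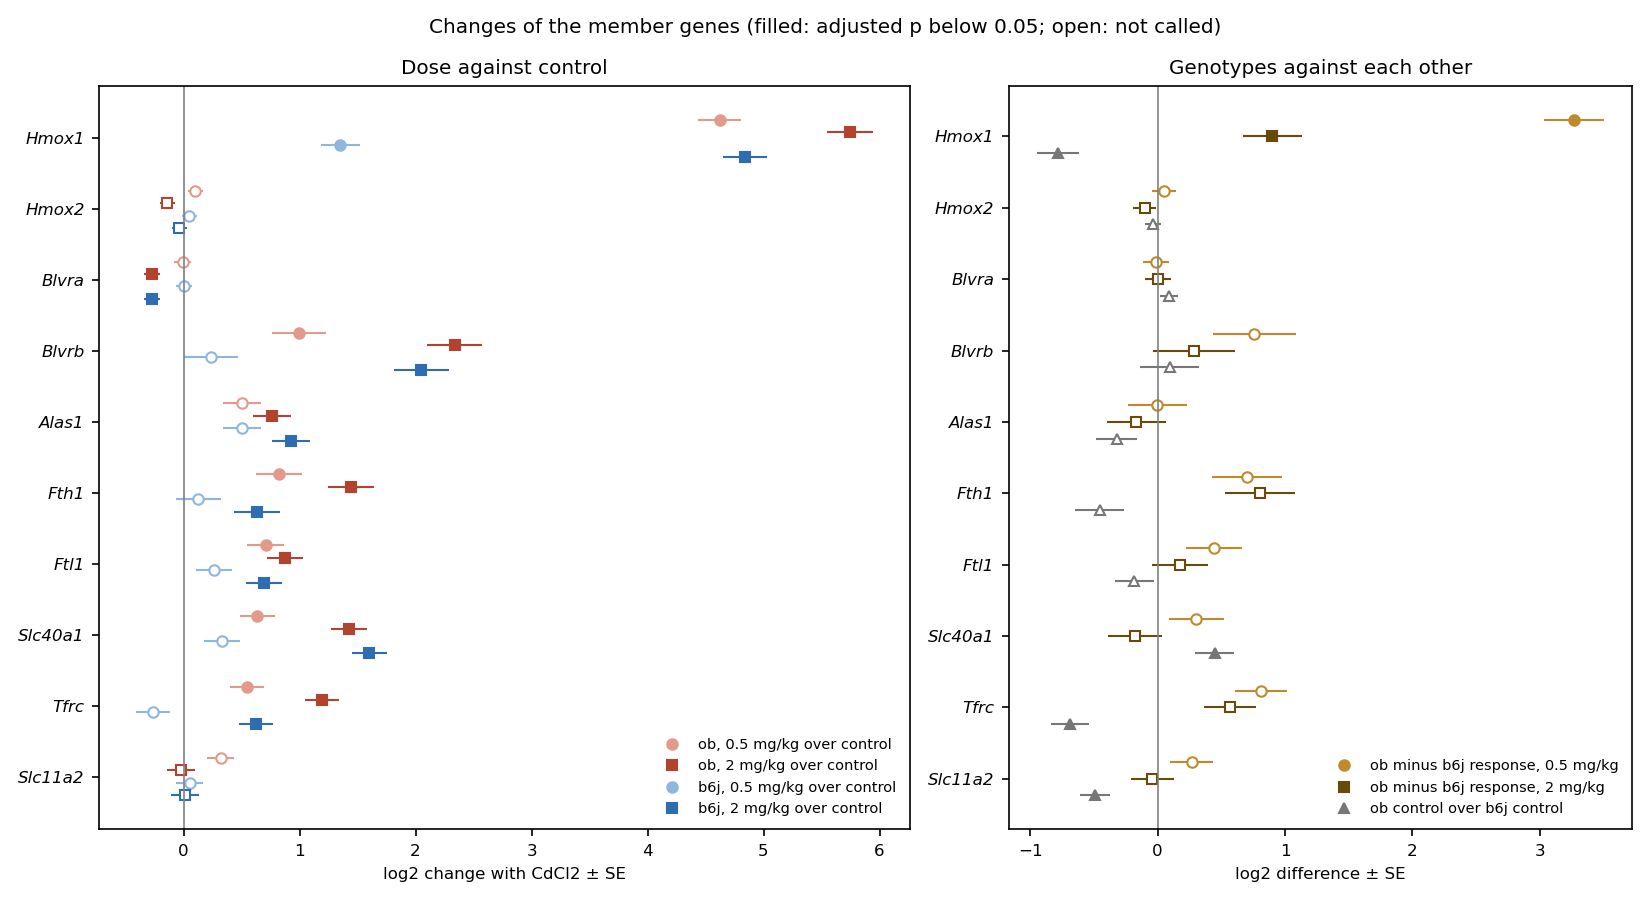
Log2 difference (± SE) of each of the 10 genes, on the left for each dose against control in ob and b6j kidneys, and on the right for the difference between genotypes in the response and for ob against b6j controls. Filled symbols mark an adjusted p below 0.05; at 0.5 mg/kg 6 symbols are filled in ob and 1, Hmox1, in b6j.

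**Figure D4:**
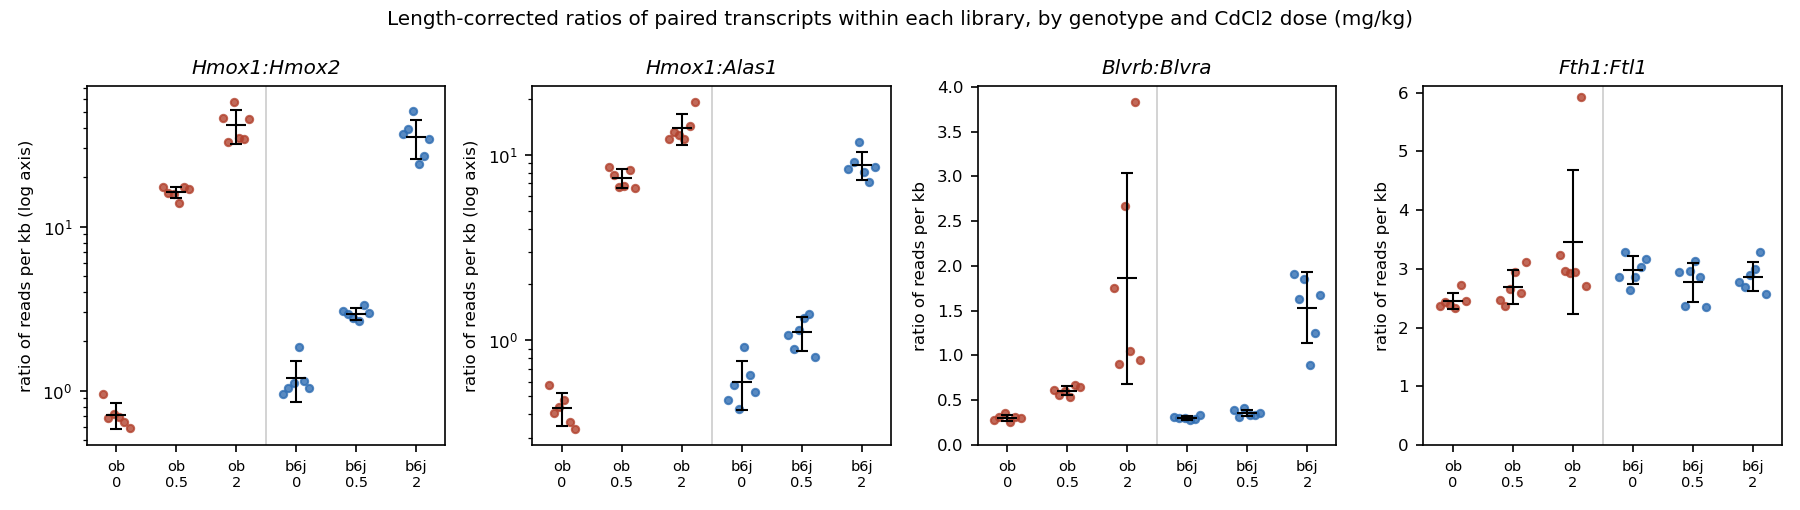
Ratios of paired genes per kilobase of exon in each library, with the mean ± SD of 6 libraries, for Hmox1 over Hmox2, Hmox1 over Alas1, Blvrb over Blvra and Fth1 over Ftl1; the axes of the Hmox1 ratios are logarithmic. The first 3 ratios are highest at 2 mg/kg in both genotypes, and the Fth1:Ftl1 ratio stands between 2.34 and 3.29 in all libraries but ob replicate 5 at 2 mg/kg, at 5.93.

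Of 13 genes of heme transport and scavenging, ob kidneys had 3 higher and 0 lower at 0.5 mg/kg and 3 higher and 1 lower at the upper dose, and b6j kidneys had 4 higher and 0 lower at 2 mg/kg. The share called at 2 mg/kg was 30.8% in ob, below the 38.4% of all tested genes, and 30.8% in b6j, against 23.7% of all tested genes. At 0.5 mg/kg in ob, 3.55% of all tested genes were higher and 0.737% lower. At the low dose in ob, Slc48a1 lost its call in 16 and Abcg2 in 4 of the 36 fits without 1 library. In b6j at 0.5 mg/kg 0 were called by edgeR, DESeq2 or limma-voom, and 0 had an unadjusted p below 0.05. Median log2 differences at 2 mg/kg were 0.34 in ob and 0.20 in b6j. Pgrmc1, a heme-binding membrane protein, had 236.8, 442.2 and 525.2 CPM as group means in ob and 229.7, 256.6 and 350.3 CPM in b6j at 0, 0.5 and 2 mg/kg. Pgrmc1 rose in ob at 0.5 mg/kg (0.90 ± 0.08, adjusted p = 6.9e-10) and at the upper dose (1.15 ± 0.08, adjusted p = 4.37e-13), and it rose in b6j at 2 mg/kg (0.61 ± 0.08, adjusted p = 8.04e-07). Its response differed between genotypes at 0.5 mg/kg (0.74 ± 0.12, adjusted p = 0.00034) and at 2 mg/kg (0.54 ± 0.12, adjusted p = 0.0089). Slc48a1, the heme transporter HRG1 of lysosomes, rose at 2 mg/kg by 1.02 ± 0.12 in ob and 0.72 ± 0.12 in b6j. Abcg2, an exporter that also carries porphyrins, rose by 0.72 ± 0.11 in ob and 0.45 ± 0.11 in b6j at 2 mg/kg. Hebp1, a heme-binding protein, fell in ob at 2 mg/kg by 0.51 (SE 0.15, adjusted p = 0.00612).

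Among 13 other genes of iron uptake and reduction, 5 were higher and 2 lower in ob at 2 mg/kg, and 5 higher and 1 lower in b6j at 2 mg/kg, shares of 53.8% and 46.2% beside 38.4% and 23.7% of all tested genes. The low dose gave 2 higher in ob, beside 3.55% of all tested genes, and 0 were called in b6j by edgeR, DESeq2 or limma-voom (3 at an unadjusted p below 0.05). The median differences at 2 mg/kg were 0.33 in ob and 0.32 in b6j. Without ob replicate 5 at 2 mg/kg, edgeR called 4 higher in ob at the low dose. At 2 mg/kg that fit gave 4 higher and 2 lower in ob, and 6 higher and 2 lower in b6j. Steap1, a member of the STEAP family, rose at 2 mg/kg by 1.97 ± 0.21 in ob (adjusted p = 4.2e-09) and 1.53 ± 0.21 in b6j (adjusted p = 1.21e-06), and Steap2 rose by 0.47 ± 0.09 and 0.62 ± 0.09. Slc39a8, the zinc transporter ZIP8 that also carries cadmium and iron, had 23.7 ± 7.36 CPM in ob at 2 mg/kg, against 65.9 ± 9.52 CPM in ob controls (-1.48 ± 0.18, adjusted p = 5.48e-08). In b6j it had 71.3 ± 8.57 CPM at 2 mg/kg, against 67.3 ± 11.4 CPM in b6j controls, and the difference between the genotypes was called (-1.56 ± 0.25, adjusted p = 0.00043). Lcn2, a siderophore-binding protein released by injured tubules, rose at 2 mg/kg in ob by 5.86 ± 0.86 (adjusted p = 1.73e-06), with a lowest, median and highest level of 13.9, 19.9 and 1558 CPM, against 3.77, 4.78 and 5.98 CPM in ob controls. Without ob replicate 5 that difference was 2.19, and the call of a difference between genotypes for Lcn2 (4.38 ± 1.08, adjusted p = 0.0252) was lost. Tfr2, the second transferrin receptor, rose at 2 mg/kg by 1.51 ± 0.29 in ob and 1.98 ± 0.30 in b6j, at group means of 4.17 and 3.79 CPM.

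Of 12 genes of iron export and the hepcidin axis, 9 were tested. In ob 2 were higher at 0.5 mg/kg, beside 3.55% of all tested genes, and 2 were higher and 1 lower at 2 mg/kg. In b6j 4 were higher at 2 mg/kg. The share called at 2 mg/kg was 33.3% in ob, below the 38.4% of all tested genes, and 44.4% in b6j, against 23.7%. In b6j at 0.5 mg/kg edgeR called 0 (2 at an unadjusted p below 0.05), DESeq2 called 1 and limma-voom 2. Bmp6, a signal for hepcidin in liver, had group means of 68.2, 96.7 and 141.8 CPM in ob and 62.4, 82.0 and 123.2 CPM in b6j at 0, 0.5 and 2 mg/kg. Bmp6 rose in ob at 0.5 mg/kg (0.50 ± 0.11, adjusted p = 0.00397) and at the upper dose (1.06 ± 0.11, adjusted p = 3.74e-09), and it rose in b6j at 2 mg/kg (0.98 ± 0.11, adjusted p = 3.55e-08). Hfe, the hemochromatosis protein, rose at 2 mg/kg by 0.53 ± 0.09 in ob and 1.09 ± 0.09 in b6j, a smaller response in ob (-0.56 ± 0.13, adjusted p = 0.0126), and was higher in ob than in b6j controls (0.85 ± 0.09, adjusted p = 1.33e-08). Hepcidin itself, Hamp, had a median of at most 0.305 CPM in every group, and its b6j call at 2 mg/kg (adjusted p = 0.0198) was lost without b6j replicate 5 at 2 mg/kg, the value becoming 0.10. The b6j count also holds Tmprss6, whose call (adjusted p = 0.0402) was lost in 6 of 36 fits without 1 library.

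Aco1, which is the iron regulatory protein IRP1 when it lacks its iron-sulfur cluster, had 383 ± 42.5 CPM in ob at 2 mg/kg, against 495.8 ± 46.8 CPM in ob controls (-0.37 ± 0.08, adjusted p = 0.000327). In b6j, Aco1 had 418.9 ± 38.2 CPM at 2 mg/kg, against 552.3 ± 26.9 CPM in b6j controls (-0.40 ± 0.08, adjusted p = 0.000263). Ireb2, which encodes IRP2, was called by edgeR in none of the 9 comparisons. In ob at 2 mg/kg Ireb2 had 0.20 ± 0.09 (adjusted p = 0.0618), and it was called higher by DESeq2 (0.23, adjusted p = 0.0313), with DESeq2 size factors, with the stricter filter and without ob control replicate 1, ob replicate 3, 4 or 6 at 2 mg/kg, b6j replicate 6 at 0.5 mg/kg or b6j replicate 3, 5 or 6 at 2 mg/kg. Epas1, whose mRNA is another known target of IRP1 and which encodes HIF2 alpha, fell at 2 mg/kg by 0.55 in ob (SE 0.06, adjusted p = 3.84e-09), more than in b6j (test of the difference -0.39 ± 0.08, adjusted p = 0.00875). Of the 5 genes of this system, 0 were higher and 2 lower in ob and 1 higher and 3 lower in b6j at 2 mg/kg, with medians of -0.10 and -0.17. The shares called were 40% and 80%, beside 38.4% and 23.7% of all tested genes. With 0.5 mg/kg edgeR called 0 in either genotype, with 0 in ob and 1 in b6j at an unadjusted p below 0.05. DESeq2 called 0 at that dose, and limma-voom 0 in ob and 1, higher, in b6j.

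Of 5 tested genes of ferritin turnover and iron chaperones, 1 was higher in ob at 0.5 mg/kg and 1 higher and 1 lower at 2 mg/kg, and in b6j edgeR and DESeq2 called 0 at either dose (1 at an unadjusted p below 0.05 at each). Of all tested genes, 4.28% were called in ob at 0.5 mg/kg and 38.4% at 2 mg/kg, and 0.325% and 23.7% in b6j. Mcoln1, a lysosomal channel that releases iron, rose in ob by 0.30 ± 0.05 at 0.5 mg/kg (adjusted p = 0.000321) and by 0.19 ± 0.05 at 2 mg/kg (adjusted p = 0.00466). Ncoa4, the receptor that delivers ferritin to the lysosome, fell by 0.31 in ob at 2 mg/kg (SE 0.10, adjusted p = 0.0122) and had -0.21 ± 0.10 in b6j (adjusted p = 0.118). Of 12 genes of mitochondrial iron and iron-sulfur clusters, 2 were higher and 3 lower in ob and 1 higher and 3 lower in b6j at 2 mg/kg, with medians of -0.09 and -0.05. The shares called, 41.7% in ob and 33.3% in b6j, stood beside 38.4% and 23.7% of all tested genes. Slc25a37, the mitochondrial iron importer mitoferrin 1, rose by 0.47 ± 0.06 in ob and 0.23 ± 0.06 in b6j. Fdx1, a ferredoxin, fell by 0.30 in ob and by 0.29 in b6j.

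NRF2 is the transcription factor best known for inducing Hmox1 and ferritin, and BACH1 is its heme-sensitive rival. Of 14 genes of this axis, ob kidneys had 5 higher at 0.5 mg/kg and 10 at the upper dose, b6j kidneys had 8 higher at 2 mg/kg, and edgeR and DESeq2 called 0 lower in these comparisons. Limma-voom, and edgeR without ob replicate 5 at 2 mg/kg, each called 1 lower in ob at 0.5 mg/kg and 1 lower in b6j at 2 mg/kg. The shares called by edgeR at 2 mg/kg were 71.4% in ob and 57.1% in b6j, beside 38.4% and 23.7% of all tested genes. At 0.5 mg/kg in ob, 3.55% of all tested genes were higher and 0.737% lower. Without ob replicate 5 at 2 mg/kg, edgeR called 9 of the 14 higher in ob and 9 in b6j at 2 mg/kg. In b6j at 0.5 mg/kg 0 were called by edgeR, DESeq2 or limma-voom, and 0 had an unadjusted p below 0.05. The median differences at 0.5 and 2 mg/kg were 0.45 and 0.95 in ob, and 0.03 and 0.69 in b6j. Txnrd1, thioredoxin reductase, rose in ob by 0.91 ± 0.14 at 0.5 mg/kg and 1.92 ± 0.14 at 2 mg/kg, and in b6j by 1.55 ± 0.14 at 2 mg/kg. Gclc, the catalytic subunit of the first enzyme of glutathione synthesis, had group means of 223.2, 372 and 1006.8 CPM in ob and 317.7, 313.8 and 1017.5 CPM in b6j at 0, 0.5 and 2 mg/kg. Nqo1, a quinone reductase, rose at 2 mg/kg by 1.16 ± 0.16 in ob (adjusted p = 4.05e-07) and by 1.28 ± 0.16 in b6j (adjusted p = 1.67e-07). Bach1 rose at 2 mg/kg by 0.53 ± 0.08 in ob and 0.36 ± 0.08 in b6j, and edgeR called neither Nfe2l2, which encodes NRF2, nor Keap1, its inhibitor, for a dose against control. Nfe2l2 in ob at 0.5 mg/kg had -0.17 ± 0.11 (adjusted p = 0.546), and it was called lower by limma-voom (-0.17, adjusted p = 0.0142), with the compared groups only (-0.18, adjusted p = 0.0283) and without ob replicate 5 at 2 mg/kg (-0.18, adjusted p = 0.0228). In the edgeR fit of all 36 libraries Nfe2l2 was higher in ob at 2 than at 0.5 mg/kg (0.31, adjusted p = 0.0364). It was also higher in ob than in b6j controls (0.35, adjusted p = 0.034).

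Markers of several cell types moved with the 2 mg/kg dose. Of all tested genes, 20.4% were called higher and 18% lower in ob at that dose, and 12.3% higher and 11.4% lower in b6j. The summed level of 7 red cell markers, globins and Alas2 among them, had a lowest, median and highest value of 5.86, 263.6 and 356.1 CPM in ob at 2 mg/kg, against 200.7, 497.3 and 563 CPM in ob controls. In b6j the values were 259, 309.8 and 356.2 CPM at 2 mg/kg, against 307.9, 458.1 and 578.9 CPM in b6j controls. Of the 7, 4 were called lower in ob at 2 mg/kg, and 0 in b6j by edgeR or DESeq2 (2 at an unadjusted p below 0.05). Limma-voom called 2 lower in ob and 2 in b6j, and without ob replicate 5 at 2 mg/kg edgeR called 5 in ob and 2 in b6j. The 10 proximal tubule markers summed to 2584.1, 13275.9 and 19415.8 CPM in ob at 2 mg/kg, against 20685.3, 23109.9 and 29919.5 CPM in ob controls, with 3 called lower. In b6j they summed to 21286.4, 26660.8 and 31288.2 CPM at 2 mg/kg, against 38232.7, 44547.2 and 49095 CPM in b6j controls, with 2 called lower. Limma-voom called 4 of the 10 lower in ob and 6 in b6j, and without ob replicate 5 at 2 mg/kg edgeR called 4 in ob and 7 in b6j. In ob at 2 mg/kg, 6 of 7 markers of the loop, distal tubule and collecting duct, 5 of 5 endothelial and 4 of 4 podocyte markers were also called lower, and 2, 0 and 0 in b6j. Without ob replicate 5 these counts were 4, 2 and 4 in ob and 4, 1 and 0 in b6j. The podocyte markers were lower in ob at 0.5 mg/kg too, 2 of 4 by edgeR (beside 0.737% of all tested genes) and 4 of 4 without that library. In b6j at 2 mg/kg 2 of 6 fat markers were called higher, and of 4 hepatocyte markers 1 was higher and 1 lower. The part of these shifts in the values of the 10 members was not tested. At 0.5 mg/kg in ob, where 6 members were called, the tubule sum was 22544, 24922.3 and 29956.3 CPM and 0 of its 10 markers were called by edgeR (1 at an unadjusted p below 0.05, 1 by DESeq2).

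Genes whose pattern was most like 3 of the members were sought among 11030 tested genes with a mean of 5 CPM or more, by Pearson correlation of log2 CPM over the 36 libraries, which share groups and doses, and they are given as a description. Nearest to Hmox1 were Ugt2b35 (r = 0.982), Gstm3 (0.975), Gstm1 (0.967), Cdhr2 (0.964) and Nyx (0.959), of which Ugt2b35, Gstm3 and Gstm1 belong to families of conjugating enzymes. Gstm1, a glutathione transferase, had group means of 505, 2207.9 and 3687.1 CPM in ob and 653.8, 823.5 and 3718.4 CPM in b6j at 0, 0.5 and 2 mg/kg. Nearest to Fth1 were Rhoc (0.968), Tmem63b (0.95), Lmna (0.949), Gnai2 (0.943) and Rplp2 (0.935). Without ob replicate 5 at 2 mg/kg these Fth1 values lay between 0.893 and 0.949. Nearest to Tfrc were Cs (0.929), Gclm (0.912), Slc1a4 (0.891), Gclc (0.883) and Tiam2 (0.878). Cs, citrate synthase, had group means of 263.6, 309.6 and 378.9 CPM in ob and 315, 311.1 and 392.2 CPM in b6j, and Gclm and Gclc are both subunits of glutamate-cysteine ligase.

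Promoter windows of 250 bases before to 50 after the start were held by the RefSeq table of build GRCm38.p6 for 7 members (13 windows), and Hmox1, Slc40a1 and Slc11a2 were not among them. The core of the antioxidant response element, TGACNNNGC on either strand, was found in 1 of the 13 windows, that of Blvra on chromosome 2 at 127070608 to 127070616, against 12.4% of all 32851 windows. The core of the metal response element, TGCACNC or TGCGCNC on either strand, was found in 3 of the 13, which belong to Alas1 and Tfrc, against 25.7% of all windows. A match is a description of the letters in the window.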

How the data were processed

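Kidney mRNA was sequenced from 36 mice, 6 in each of 6 groups of genotype and CdCl2 dose, from snap frozen tissue extracted with TRIzol, per the labels' protocols. The deposited values are whole-number read counts per gene made with featureCounts 1.4.6-p2, per the file headers, on Ensembl 96 annotation of GRCm38 after Trimmomatic and STAR, per the submitters' processing notes. Counting ignored strand, per the file headers. A joined table with 36 columns was not used. From the counts, CPM, levels per kilobase of exon and all tests were computed here. The length of a gene was that of all its annotated exons together, so the size of each ratio per kilobase depends on the annotation. Genes were filtered with filterByExpr, leaving 18180, scaled by TMM (factors 0.892 to 1.122) and fitted over all 36 libraries with edgeR 4.0.16 (R 4.3.3), quasi-likelihood test, 1 mean per group, no covariate, 9 comparisons, Benjamini-Hochberg adjustment over all tested genes and a threshold of 0.05. SE is the log2 difference over the square root of F. Alternatives were DESeq2 size factors, the DESeq2 1.42.0 Wald test, limma 3.58.1 voom with sample weights, no filter, a filter of 1 CPM in 6 libraries, the compared groups only, a replicate block and each library left out. The replicate numbers were not taken as pairs, since correlations of same-numbered libraries ran from -0.168 to 0.162. The edgeR quasi-likelihood test was checked on simulated counts with 200 changed genes, for part of the 9 comparisons only. The alternatives and the fits without 1 library were not checked in this way. Beyond the members, genes named in the text came from fixed lists of heme and iron pathways, as called genes with the smallest adjusted p or those with a known defining role, and from the 5 genes most correlated with Hmox1, Fth1 and Tfrc. The members and lists were chosen with earlier results of these data known. The labels name no batch. A listed gene is not reported here.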

Additional observations from a re-analysis of the deposited data

Results flagged for a closer look

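Of 60 sets of 6 libraries, 1 for each gene and group, 6 held a library whose gap to its nearest neighbour was large against the range of its group, and chance gives about 5% of such sets. The Hmox1 level of b6j control replicate 4 was 71.63 CPM, the highest of the b6j controls. Fth1 stood at 18873.9 CPM in ob replicate 5 at 2 mg/kg, and Slc11a2 in the same library at 43.99 CPM, the lowest of its group. In b6j replicate 6 at 0.5 mg/kg, Fth1 reached 6665.1 CPM and Ftl1 1097.8 CPM, and that library was the highest of its group for 7 of the 10 members. Tfrc reached 144.5 CPM in ob replicate 6 at 0.5 mg/kg. The Hmox1 response differed between genotypes by the test of the difference itself, with a log2 difference, ob minus b6j, of 3.27 at 0.5 mg/kg and 0.902 at 2 mg/kg.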

How the results depend on the processing

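Over 7 other settings, 583 of 630 member values kept direction and side of the threshold, 9 lost a call, 25 gained one and 13 turned sign, none of them called. Over 36 fits without 1 library, the same held for 3132 of 3240 values, with 47 calls lost, 17 gained and 44 signs turned. The members called at 2 against 0.5 mg/kg in ob numbered 5 with the compared groups only, where Hmox2, Fth1 and Slc11a2 lost their calls. Of all tested genes that setting called 11.4%, beside 29.7% by edgeR over all 36 libraries. For the difference between genotypes at 0.5 mg/kg, 2 were called by DESeq2, 5 by limma-voom and 4 with the compared groups only, and 1 to 3 without 1 library. Of all tested genes these 3 settings called 0.814%, 4.43% and 1.86%, beside 0.385% by edgeR over all 36 libraries. At 2 mg/kg, 2 were called by DESeq2, 2 by limma-voom and 0 with the compared groups only, and 0 to 2 without 1 library. The shares of all tested genes there were 4.11%, 5.91% and 1.09%, beside 2.07% by edgeR over all 36 libraries. The cause was not tested. With the replicate block 7 members were called in ob at 0.5 mg/kg and 7 in b6j between the doses, against 6 in each without it, and the member counts of the other comparisons did not move. Of all tested genes, 4.1% and 15.9% were called with the block, beside 4.28% and 17.3% without it.
The values whose sign turned were the following. In ob at 2 mg/kg Slc11a2 had 0.002 with DESeq2 size factors, 0.002 with DESeq2, 0.126 with limma-voom and 0.001 with the stricter filter (-0.085 to 0.121 without 1 library). In b6j at 0.5 mg/kg Blvra had -0.054 with limma-voom, -0.002 with the compared groups only and -0.001 with the replicate block. Of the genotype differences at 0.5 mg/kg, Blvra had 0.046 with limma-voom, and Alas1 0.124 with limma-voom, 0.002 with the stricter filter and 0.002 with the replicate block. At 2 mg/kg limma-voom gave -0.182 for Blvrb and 0.123 for Slc11a2. Without 1 library, Blvra ran from -0.031 to 0.011 in ob and from -0.073 to 0.047 in b6j at 0.5 mg/kg, and Fth1 from -0.003 to 0.168 in b6j at 0.5 mg/kg. Slc11a2 ran from -0.064 to 0.06 in b6j at 2 mg/kg and from -0.117 to 0.009 at 2 against 0.5 mg/kg in b6j, and Tmprss6 from -0.377 to 2.535 in b6j at 2 mg/kg. The genotype difference at 0.5 mg/kg ran from -0.053 to 0.071 for Blvra and from -0.092 to 0.154 for Alas1. At 2 mg/kg it ran from -0.031 to 0.038 for Blvra, from -0.076 to 0.446 for Blvrb and from -0.101 to 0.11 for Slc11a2.
Over all genes, with the other settings and then the fits without 1 library as ranges, edgeR called 779 in ob at 0.5 mg/kg (555 to 2337, 578 to 1780), 6976 in ob at 2 mg/kg (3880 to 7254, 6451 to 7366) and 5406 in ob between the doses (1889 to 5718, 4685 to 5965). For b6j the counts were 59 at 0.5 mg/kg (55 to 232, 42 to 157), 4305 at 2 mg/kg (3830 to 6949, 3718 to 6388) and 3143 between the doses (2661 to 5176, 2378 to 5267). Between controls it called 2822 (2191 to 5629, 2257 to 4781), and for the genotype difference 70 at 0.5 mg/kg (50 to 805, 44 to 254) and 376 at 2 mg/kg (194 to 1075, 216 to 758). Without ob replicate 5 at 2 mg/kg the counts were 1780 in ob and 157 in b6j at 0.5 mg/kg, 6388 in b6j at 2 mg/kg and 4781 between controls. Levels under 0.112 CPM can rest on 3 counts or fewer.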
